A study of Rattus norvegicus with 4 samples.

Results

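The genes described here encode the machinery that burns fatty acids, 32 in all, chosen by name as the enzymes of fatty acid oxidation in mitochondria and peroxisomes. Each was read from the probe set that carries its symbol alone, and where several do, from the one with the highest mean log2 signal over the 4 arrays. A probe set was found for 31 of the 32, among 14217 named genes on the array. The exception was Acaa1a, a peroxisomal thiolase gene, whose probe set also carries the symbol of its close relative Acaa1b and was not used. Of the 31, 28 were bright enough to test, of 10035 named genes tested in all.

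The samples were Sertoli cells of 20-day-old male Sprague-Dawley rats, cultured in serum-free medium for 72 h, either with cAMP or with no addition. There were 2 cAMP samples and 2 control samples, each hybridised to a one-colour Affymetrix rat array. Which cAMP compound was added, and how much, is not stated in the labels. They call the replicates biological without saying that these were separate preparations of cells, so the p-values cover only the variation among these 4 arrays, and some of it may be technical. Both groups share the medium, with bovine serum albumin as its protein.

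Fatty acid oxidation starts when a long-chain fatty acid is activated to its coenzyme A ester. Carnitine palmitoyltransferases then carry the acyl chain into the mitochondrion, where a repeated cycle of dehydrogenation, hydration, a further dehydrogenation and cleavage shortens it and passes electrons to the respiratory chain through the electron transfer flavoprotein. Peroxisomes run a related cycle on very long and branched chains, with oxidases in place of the first dehydrogenases. Sertoli cells are known to use fatty acids as a fuel of their own while they supply lactate to the germ cells, and they meet a load of lipid from the residual bodies and dying germ cells they engulf.

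The arrays were scaled alike, with median signals of 31.3 and 33.7 on the cAMP arrays and 32.9 and 33.7 on the control arrays. Control replicate 2 stood furthest from the others: across tested probe sets, which are not independent replicates, its log2 signals correlated at 0.895 and 0.900 with the cAMP arrays, against 0.925 and 0.924 for control replicate 1. Among the members, control replicate 2 read below control replicate 1 for 21 of the 28 tested, as it did for 5629 of the 10035 genes. Of 11 Sertoli cell markers on the array, 10 lay above background (a signal of 14.2, the highest of the Bacillus control probe sets) on all 4 arrays, with summed signals of 20890 and 20658 in cAMP samples and 18525 and 19585 in control samples. Of the 10 tested, Inha, Shbg and Dhh rose and Gata4 and Aard fell, and without Inha, which encodes the inhibin alpha subunit, the sums were 16546 and 15926 with cAMP and 17573 and 18342 without. The 8 germ cell markers summed to 4409 and 3358 with cAMP and 4224 and 3774 without, so the groups overlapped. Of the 5 tested Crem alone passed, higher with cAMP at 656.4 and 601.4 against 242.1 and 140.3, and these values are part of the sums. Sycp3, Tex101 and Ldhc had log2 differences of -0.22, -0.21 and -0.41, and Sycp1 had 0.25. The 7 peritubular myoid markers summed to 182 and 221 with cAMP and 614 and 461 without. Of the 5 tested, Tagln and Synpo2 fell and Des rose, and without Tagln the sums overlapped, at 180.4 and 213.7 with cAMP and 269.5 and 196.5 without. Tagln and Synpo2 were bright enough to test only through the control arrays. The 3 endothelial markers summed to 66.0 and 71.2 with cAMP and 204.6 and 138.2 without, and Kdr fell. Of the 6 Leydig cell markers 3, Cyp17a1, Hsd3b1 and Lhcgr, were at or below background on every array. Cyp11a1 lay above it on all 4 arrays, at 50.9 and 42.4 with cAMP and 42.1 and 40.6 without. Hsd17b3 lay above it on 3 arrays and Insl3 on 1. Of the 6 macrophage markers 2, Cd163 and Ptprc, were at or below background on every array, and Aif1 and Lyz2 lay above it on all 4. The macrophage markers summed to 87.9 and 117.2 with cAMP and 91.1 and 138.3 without. Among them Cd68 was at 28.1 and 45.2 with cAMP and below background without, and Lyz2, which did not pass, at 26.4 and 27.6 with cAMP and 47.3 and 108.6 without. In such bulk samples fewer cells of a type and less RNA per cell cannot be told apart, and the part of these markers in the members' differences was not tested.

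With cAMP 4 members rose, 2 fell and 22 did not pass the test. The test was limma on log2(signal + 16), where 16 is a pseudocount added to each signal, with Benjamini-Hochberg adjustment over all 18625 probe sets tested and a threshold of 0.05. The members that rose were Acsl4, Acadvl, Hadh and Cpt1a, and those that fell were Acadl and Acsl6. The 4 that rose were 14.3% of the members tested, where 8.27% of all named genes were called higher, and the 2 that fell were 7.14%, where 7.14% were called lower. In both directions together the members stood at 21.4% against 15.4%, so the number of changed members was near that of genes in general. The median log2 difference was 0.10 over the 28 members and -0.03 over all genes tested. Both cAMP arrays lay above both control arrays for 11 members, 39.3% of those tested, against 28.8% of all genes, and below both for 7, which is 25.0% against 32.6%. For the remaining 10 the groups overlapped. The counts depended on single arrays. Without control replicate 1 more members were called, and so were more genes in general. Without control replicate 2 fewer members were called, while the count for all genes hardly changed. With 1 of the 2 cAMP arrays dropped, whichever it was, fewer genes were called in general, and Acsl4 was the only member among them. The median log2 difference over the members was 0.240 or 0.015 with control replicate 1 or 2 left out. Over all genes it was 0.002 or -0.054. With cAMP replicate 1 or 2 left out it was 0.123 or 0.067 over the members and -0.037 or -0.008 over all genes.

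**Figure D1:**
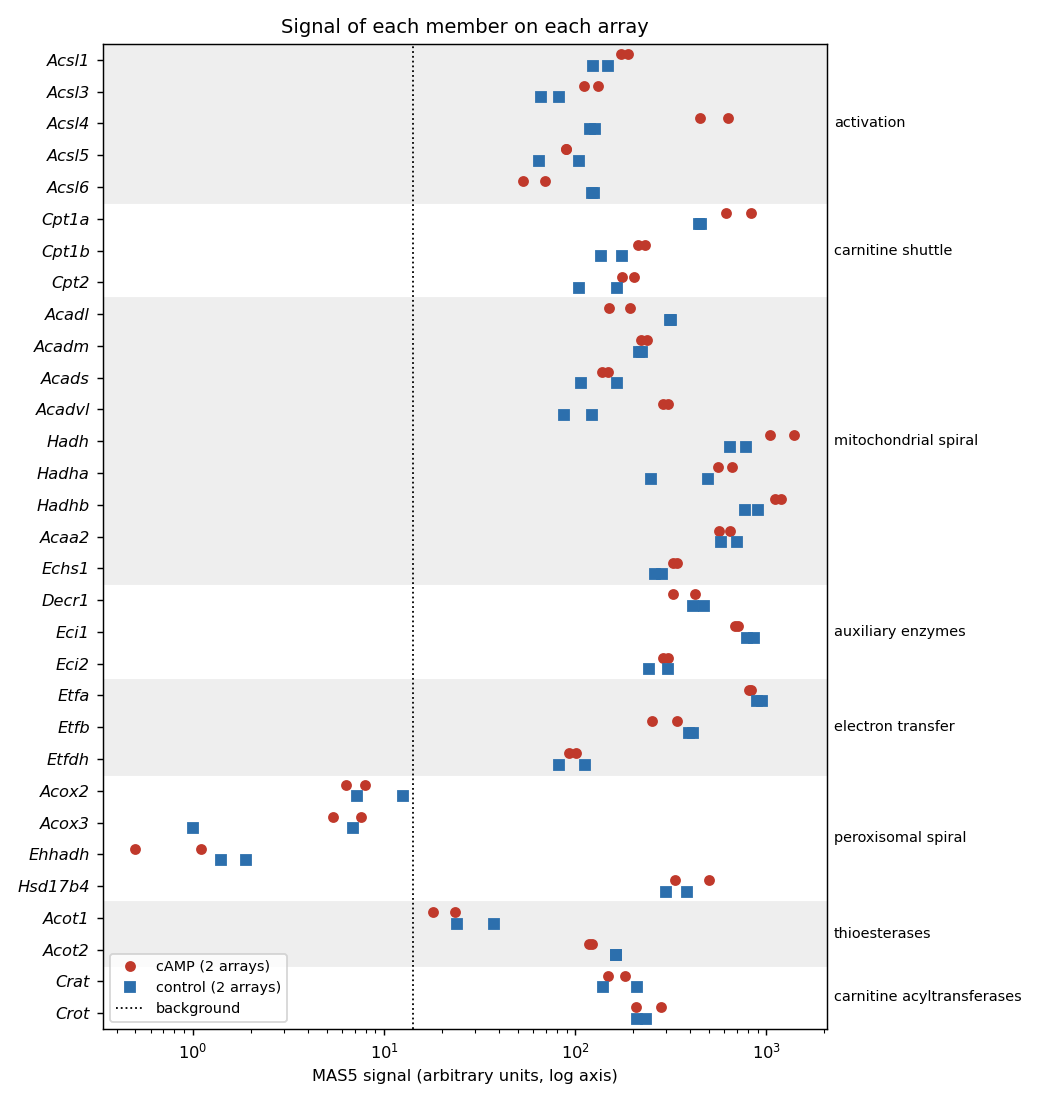
Signal of the 31 members with a probe set on each array, on a log axis, grouped by role, with red circles for the 2 cAMP arrays, blue squares for the 2 control arrays and a dotted line at background (14.2). Acsl4 and Acadvl are the members whose circles lie furthest to the right of their squares, and Acox2, Acox3 and Ehhadh lie left of the background line on all 4 arrays.

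The activating enzymes, the long-chain acyl-CoA synthetases, changed in opposite directions. Acsl4, which prefers arachidonate and related polyunsaturated fatty acids, had signals of 627.0 and 448.7 in cAMP samples, against 127.3 and 118.9 in control samples. Both cAMP arrays lay far above both control arrays, and the mean signal was 4.37-fold higher. The log2 difference, cAMP minus control, was 1.98 ± 0.19 (SE, n = 2 arrays per group; limma adjusted p = 0.000863). Acsl4 passed under every alternative tried for it, with log2 differences of 1.67 to 2.21. Acsl6, a synthetase best known from brain, red cell precursors and testis, had 69.1 and 53.1 with cAMP, against 125.3 and 122.5 without. Its groups did not overlap, and it fell by 0.87 ± 0.19 on the log2 scale (limma adjusted p = 0.0260), a call that was lost without cAMP replicate 1 (adjusted p = 0.119) and without cAMP replicate 2 (0.251). It was lost without the filter on dim probe sets too.

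The other synthetases did not pass. Acsl3, which sits on the endoplasmic reticulum and lipid droplets, read 131.2 and 111.3 with cAMP, against 82.2 and 66.1 without, a log2 difference of 0.61 ± 0.19 (adjusted p = 0.0853). It passed without control replicate 1 (adjusted p = 0.0342). Acsl1, the main synthetase of liver, heart and fat tissue, read 189.3 and 173.7 against 123.5 and 148.2 without cAMP (0.38 ± 0.17), and its second tested probe set, with 0.48 ± 0.23, also had both cAMP arrays above both control arrays. Acsl5, found on the endoplasmic reticulum and mitochondria, read 89.6 on both cAMP arrays, between the 104.7 and 64.7 of the control arrays (0.10 ± 0.23). For Acsl4 and Acsl6 the 95% intervals of the log2 difference, 1.53 to 2.42 and -1.32 to -0.42, lay on opposite sides of 0.

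All 3 carnitine palmitoyltransferases had both cAMP arrays above both control arrays, where 28.8% of all genes tested did. Of the 3, 1 passed, where 15.4% of all genes passed in either direction. Cpt1a, the isoform of liver and most tissues at the outer mitochondrial membrane, is the step at which malonyl-CoA holds oxidation back. It read 832.6 and 613.1 with cAMP, against 441.8 and 452.6 without, and rose by 0.66 ± 0.17 on the log2 scale (limma adjusted p = 0.0461). The control arrays lay close together and the cAMP arrays further apart. A second probe set of Cpt1a read 136.5 and 138.1 with cAMP and 84.6 and 57.1 without and rose as well (0.84 ± 0.21, limma adjusted p = 0.0407). The first was close to the threshold and was lost without control replicate 2 (adjusted p = 0.0520), without cAMP replicate 1 (0.386) and without cAMP replicate 2 (0.0858), and also without the filter on dim probe sets or without the intensity trend of the variance. Cpt1b, the muscle isoform, read 211.6 and 231.9 with cAMP and 176.5 and 136.3 without (0.47 ± 0.18, adjusted p = 0.137). Cpt2, which remakes the coenzyme A ester inside the mitochondrion, read 203.0 and 176.1 against 164.4 and 104.2 without cAMP (0.48 ± 0.23, adjusted p = 0.219). Both passed without control replicate 1, with adjusted p of 0.0283 for Cpt1b and 0.0198 for Cpt2.

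The acyl-CoA dehydrogenases, which take the first step of the cycle and divide the work by chain length, split. Acadvl, the very-long-chain enzyme bound to the inner membrane, read 289.4 and 305.1 with cAMP, against 122.4 and 87.4 without. The cAMP arrays agreed closely and lay well above both control arrays, a mean signal 2.83-fold higher. Its log2 difference was 1.39 ± 0.19 (limma adjusted p = 0.00396), and the adjusted p was 0.0523 without cAMP replicate 1 and 0.0563 without cAMP replicate 2. Acadl, the long-chain enzyme of the matrix, moved the other way: it read 149.4 and 192.4 with cAMP, against 317.9 and 312.2 without. The groups did not overlap, and Acadl fell by 0.83 ± 0.17 on the log2 scale (limma adjusted p = 0.0200), with adjusted p of 0.224 without cAMP replicate 1 and 0.0771 without cAMP replicate 2. The 95% interval of the log2 difference was 0.94 to 1.84 for Acadvl and -1.24 to -0.43 for Acadl. The medium-chain and short-chain enzymes showed no such separation. Acadm read 221.1 and 237.4 with cAMP and 215.9 and 222.6 without (0.06 ± 0.15), and the 95% interval of its difference ran from -0.30 to 0.42. Acads read 137.2 and 147.9, between the 164.7 and 106.5 of the control arrays (0.09 ± 0.22).

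**Figure D2:**
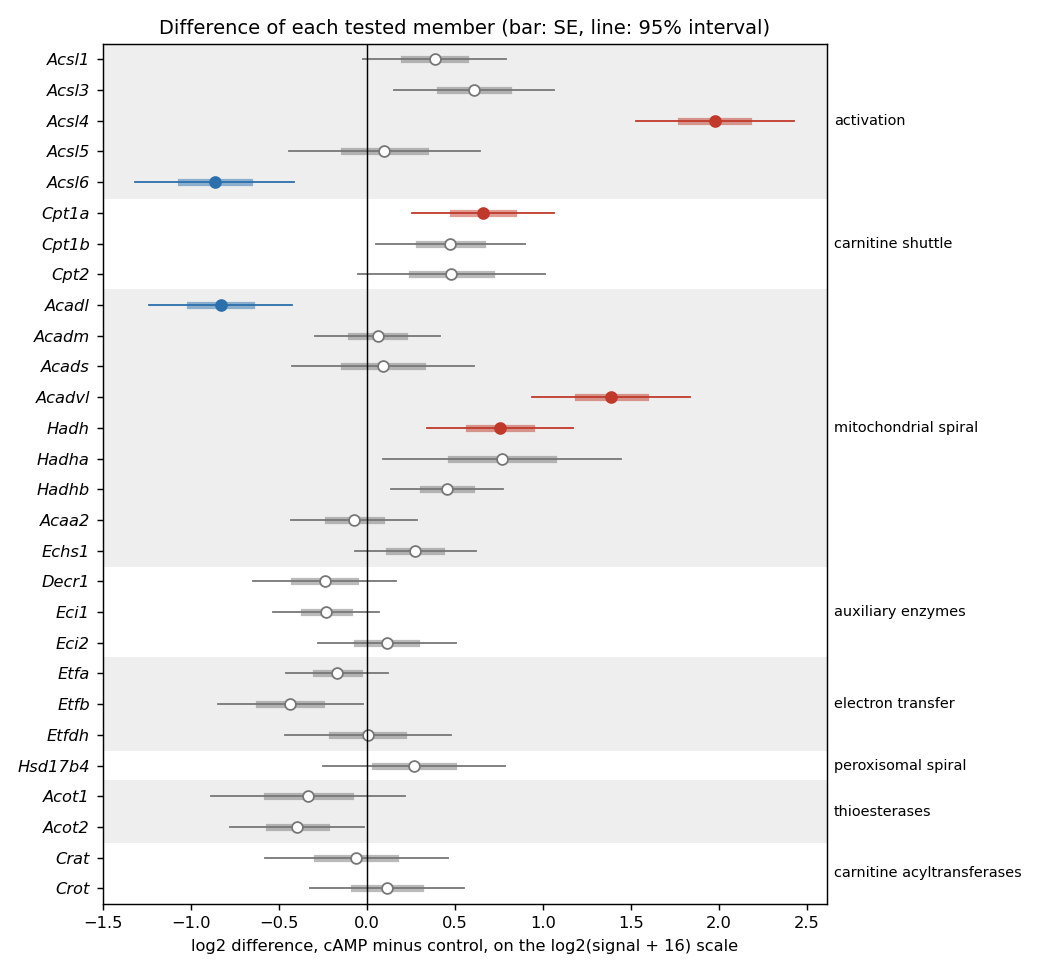
Log2 difference, cAMP minus control, of the 28 tested members by role, with the SE as a thick bar and the 95% interval as a thin line. Filled red points (Acsl4, Cpt1a, Acadvl, Hadh) rose and filled blue points (Acsl6, Acadl) fell; open grey points did not pass, and their differences ran from -0.44 to 0.77.

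In the later steps of the mitochondrial cycle Hadh alone passed. Hadh, the 3-hydroxyacyl-CoA dehydrogenase of medium and short chains, read 1390.2 and 1041.6 with cAMP, against 778.1 and 641.1 without. The groups did not overlap, though the cAMP arrays differed by more than the control arrays did. Hadh rose by 0.76 ± 0.18 on the log2 scale (limma adjusted p = 0.0314), and the call was lost without control replicate 2 (adjusted p = 0.0537), without cAMP replicate 1 (0.294) and without cAMP replicate 2 (0.0712), and, as for Cpt1a, without the filter or the trend. Hadha and Hadhb encode the alpha and beta subunits of the trifunctional protein, which carries out the last 3 steps on long chains at the inner membrane. Hadha read 557.2 and 663.9 with cAMP and 494.0 and 248.1 without (0.77 ± 0.29, adjusted p = 0.133). The control arrays were far apart, and without control replicate 1 Hadha passed (adjusted p = 0.00162), while without control replicate 2 its log2 difference was 0.29. The second tested probe set of Hadha overlapped between the groups, at 31.2 and 42.1 with cAMP and 26.2 and 33.2 without (0.20 ± 0.22, adjusted p = 0.603). Hadhb read 1190.4 and 1108.7 with cAMP and 904.1 and 769.1 without (0.45 ± 0.14, adjusted p = 0.0710), and it also passed without control replicate 1 (0.0111). Echs1, the enoyl-CoA hydratase, read 341.9 and 324.9 against 261.8 and 285.1 without cAMP (0.27 ± 0.15). Acaa2, the thiolase of the matrix, overlapped between the groups, at 644.2 and 566.9 with cAMP and 699.9 and 578.8 without (-0.07 ± 0.15).

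**Figure D3:**
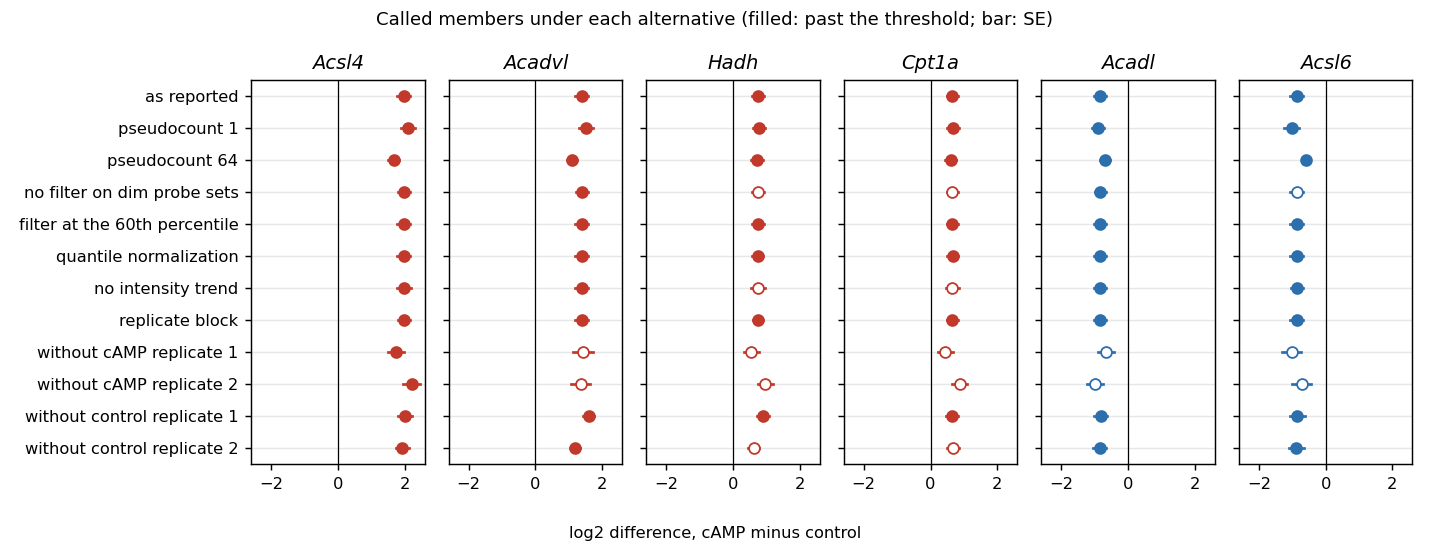
Log2 difference, cAMP minus control, of the 6 members that passed, under the setting reported and each alternative, with the SE as a bar and a filled point where the adjusted p passed 0.05. Every point keeps its side of 0, and Acsl4 is the member whose points are all filled.

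None of the members that receive electrons or handle unsaturated chains passed (limma, n = 2 arrays per group; at an unadjusted p under 0.05 only Etfb did). The electron transfer flavoprotein is made of the subunits encoded by Etfa and Etfb, and Etfdh encodes the oxidoreductase that hands its electrons to ubiquinone. Etfb read 253.0 and 340.7 with cAMP, against 395.4 and 412.3 without, a log2 difference of -0.44 ± 0.18 (adjusted p = 0.153). Etfa lay below the control arrays too, at 811.7 and 826.0 against 952.2 and 894.7 without cAMP (-0.17 ± 0.12), and Etfdh overlapped (0.00 ± 0.20). Decr1 and Eci1, the reductase and the isomerase that bring double bonds into a form the cycle can use, had log2 differences of -0.24 ± 0.17 and -0.23 ± 0.13. Eci1 was read from a probe set whose name marks it as able to bind more than 1 transcript. Eci2, an isomerase of peroxisomes and mitochondria, had 0.11 ± 0.17.

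The peroxisomal cycle could be followed through 1 gene only. Hsd17b4, the D-bifunctional protein that hydrates and dehydrogenates very long and branched chains, read 334.2 and 501.7 with cAMP and 382.1 and 298.8 without (0.27 ± 0.22, adjusted p = 0.483), with the groups overlapping. The branched-chain oxidase genes Acox2 and Acox3 and the L-bifunctional protein gene Ehhadh lay below background on all 4 arrays. Acox2 read 6.3 and 7.9 with cAMP and 7.2 and 12.6 without. Acox3 read 7.6 and 5.4 with cAMP and 6.9 and 1.0 without, and Ehhadh read at most 1.9 on any array. No difference could be measured for them. Crat and Crot, the carnitine acyltransferases that export short and medium chains, had log2 differences of -0.06 ± 0.22 and 0.11 ± 0.19, and their groups overlapped. The thioesterases, which undo activation, lay lower with cAMP without passing. Acot2 of the mitochondrial matrix read 122.1 and 117.8 against 163.6 and 162.9 without cAMP (-0.40 ± 0.16, adjusted p = 0.159), and Acot1 of the cytosol read 23.6 and 18.1 against 37.4 and 24.2 (-0.33 ± 0.24). The 2 further probe sets of Acot2 disagreed, with log2 differences of -0.44 ± 0.23 and 0.44 ± 0.24. Acot1 and Acot2 are close relatives, and their probe sets may share signal.

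Promoters from RefSeq, assembly GRCr8, matched 28 of the 32 members, each as a window from 250 bases before to 50 bases after the annotated start. They were searched on both strands for letters that cAMP-responsive and PPAR-responsive genes are known to use, and for the GC box, which is particular to neither. The core site of the cAMP response element, TGACG, occurred in 7 of the 28 member promoters (25.0%) and in 21.2% of all 33469 promoters. Of the members that rose, Acsl4 and Hadh held it, and the others that held it, Acadm, Crat, Acot2, Ehhadh and Acox3, were not called. The full palindrome, TGACGTCA, which contains the core site, occurred in the promoters of Acadm and Acox3 and in 1.83% of all promoters. The direct repeat bound by PPAR with its partner is AGGTCA given again after 1 spacer base. Its exact letters were in none of the 28 and in 0.0538% of all promoters, and repeats with a changed letter were not searched. Acadvl holds such a near repeat, AGGTCAgtggtca, at the marked site nearest its start. AGGTCA itself was in 6 (21.4%), Acadvl among them, against 16.2% of all. The GC box GGGCGG was in 20 of the 28 (71.4%) and in 33.1% of all promoters. A match describes the letters of these windows and not binding. The first 3 sequences below are shown because their genes rose and their windows held TGACG or AGGTCA. Capitals mark TGACG in Acsl4 and Hadh and AGGTCA in Acadvl, in either orientation. Cpt1a rose too, but its window held none of the letters searched and is not shown. The fourth is Acadm, whose promoter holds the full palindrome in capitals and whose signal overlapped between the groups.
Acsl4, chrX:110803212-110803511, minus strand: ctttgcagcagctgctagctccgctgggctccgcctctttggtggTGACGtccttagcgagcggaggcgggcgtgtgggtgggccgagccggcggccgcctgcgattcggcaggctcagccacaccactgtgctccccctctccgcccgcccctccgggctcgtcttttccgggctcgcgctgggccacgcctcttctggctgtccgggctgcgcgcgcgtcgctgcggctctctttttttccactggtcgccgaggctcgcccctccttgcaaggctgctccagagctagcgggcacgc
Hadh, chr2:222504397-222504696, minus strand: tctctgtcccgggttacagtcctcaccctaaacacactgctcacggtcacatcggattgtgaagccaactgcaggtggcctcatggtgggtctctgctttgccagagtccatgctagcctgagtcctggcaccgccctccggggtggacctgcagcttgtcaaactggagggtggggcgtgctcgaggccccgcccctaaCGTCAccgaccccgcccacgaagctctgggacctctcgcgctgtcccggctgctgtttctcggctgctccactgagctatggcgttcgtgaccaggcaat
Acadvl, chr10:55236656-55236955, minus strand: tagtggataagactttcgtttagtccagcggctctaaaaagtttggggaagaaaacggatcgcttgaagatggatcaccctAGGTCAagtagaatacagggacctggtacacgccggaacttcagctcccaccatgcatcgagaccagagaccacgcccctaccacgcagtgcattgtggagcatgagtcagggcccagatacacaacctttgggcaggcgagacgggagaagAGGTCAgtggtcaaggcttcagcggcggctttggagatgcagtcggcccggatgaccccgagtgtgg
Acadm, chr2:245542815-245543114, minus strand: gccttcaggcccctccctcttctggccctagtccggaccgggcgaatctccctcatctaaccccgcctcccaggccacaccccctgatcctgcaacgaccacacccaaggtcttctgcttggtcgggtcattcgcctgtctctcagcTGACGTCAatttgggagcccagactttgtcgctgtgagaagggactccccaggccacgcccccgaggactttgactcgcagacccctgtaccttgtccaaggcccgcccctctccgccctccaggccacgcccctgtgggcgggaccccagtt

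The core site began 205 bases before the start of Acsl4 and 50 bases before that of Hadh, and the palindrome 103 bases before that of Acadm. Acadvl held AGGTCA at 169 and at 17 bases before its start. Acadl has no entry in the promoter table. Hadha and Hadhb lie head to head on chromosome 6 on opposite strands, with annotated starts 301 bases apart, so their upstream windows overlap. The window of Hadha is shown, with its single GC box in capitals, because the calls of both genes changed with the control array left out.
Hadha, chr6:31907551-31907850, plus strand: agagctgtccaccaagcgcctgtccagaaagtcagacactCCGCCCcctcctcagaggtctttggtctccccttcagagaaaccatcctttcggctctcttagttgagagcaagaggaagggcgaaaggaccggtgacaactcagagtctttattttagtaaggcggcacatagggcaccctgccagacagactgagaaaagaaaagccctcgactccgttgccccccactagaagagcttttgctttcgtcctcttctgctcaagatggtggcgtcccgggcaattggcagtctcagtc

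Beyond the members, 9 lists of neighbouring genes were read: carnitine supply and malonyl-CoA control, uptake and other synthetases, other oxidation enzymes, other thioesterases, the propionyl-CoA branch, ketone bodies, peroxisome assembly, regulators, and PPAR targets outside oxidation. All of these lists were chosen with earlier results of these data known, so the shares given below are no result about the lists. Of 105 tested genes on them, 8 rose, 12 fell and 85 did not pass, which is 19.0% changed against 15.4% of all genes, with a median log2 difference of -0.02. Of these 20 calls, 9 held without cAMP replicate 1 and 7 without cAMP replicate 2, and without control replicate 1, 17 genes were higher and 13 lower. Slc27a3, Vldlr, Fabp3, Bdh2, Them5 and Esrrg were called with any 1 array left out.

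Among 14 genes of uptake and activation 4 passed, all higher with cAMP, a share of 28.6% against 15.4% of all genes (8.27% higher, 7.14% lower). Slc27a3, an acyl-CoA synthetase of the fatty acid transport protein family, read 210.0 and 263.7 with cAMP, against 71.0 and 53.9 without (1.69 ± 0.20, limma adjusted p = 0.00211). Its relative Slc27a1 read 1071.5 and 1060.2 against 737.8 and 732.2 without cAMP (0.53 ± 0.12), and the medium-chain synthetase Acsm5 rose by 1.02 ± 0.19 on the log2 scale. Acsf2, another medium-chain synthetase, was at background on both control arrays and at 24.9 and 49.8 with cAMP, at least 2.48-fold higher. It reached the filter on dim probe sets only through the cAMP arrays. Slc27a1 and Acsm5 were lost when either cAMP array was left out, and Acsf2 without cAMP replicate 2 and without control replicate 2. Acsf2 was also lost with a pseudocount of 64 or 1 and without the filter, and Slc27a1 without the filter or the trend.

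On the carnitine side 2 of 7 genes passed, both lower with cAMP, or 28.6% against 15.4% of all genes. Bbox1, the last enzyme of carnitine synthesis, read 24.0 and 19.3 with cAMP, against 80.1 and 88.1 without (-1.41 ± 0.20, limma adjusted p = 0.00429). Acaca, the carboxylase that makes malonyl-CoA, fell by 0.67 ± 0.18 on the log2 scale (adjusted p by limma = 0.0482), to 372.8 and 315.6 with cAMP, against 637.0 and 484.5 without. Mlycd, which breaks malonyl-CoA down, had 0.48 ± 0.19 and did not pass, nor did the carnitine-acylcarnitine carrier Slc25a20 (0.18 ± 0.18) or the carnitine transporter Slc22a5 (-0.06 ± 0.20). Acaca was lost when either cAMP array or control replicate 1 was left out, and also with a pseudocount of 1, without the filter and without the trend. Bbox1 was lost without cAMP replicate 2.

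Of 19 other oxidation enzymes, 2 rose and 1 fell, 15.8% against 15.4% of all genes. Amacr, the racemase that prepares branched chains for peroxisomal oxidation, rose by 1.03 ± 0.20 and read 226.5 and 184.4 with cAMP, against 105.1 and 79.8 without. Scp2, which holds the peroxisomal thiolase for branched chains, rose by 0.47 ± 0.12, while the isomerase gene Ech1 fell by 0.49 ± 0.11. All 3 calls were lost when either cAMP array was left out, those of Scp2 and Ech1 also without the filter or the trend, and that of Scp2 with the replicate number as a block. Catalase (Cat), which clears the hydrogen peroxide that peroxisomal oxidases make, was the only 1 of 20 peroxisome genes to pass, 5% against 15.4%. It fell by 0.72 ± 0.15, to 440.7 and 470.3 with cAMP, against 840.5 and 691.3 without. The call was lost when either cAMP array was left out and without the trend. In the propionyl-CoA branch Pcca alone of 8 passed (12.5%), and it rose by 0.66 ± 0.17. That call was lost when either cAMP array was left out and without the filter or the trend. Them5, a mitochondrial thioesterase, was the only 1 of 7 on its list to pass (14.3%). Its signals were 253.8 and 205.1 with cAMP, against 808.6 and 812.4 without (-1.76 ± 0.15). Among the ketone body genes Bdh2, a short-chain dehydrogenase that can act on 3-hydroxybutyrate, alone of 5 passed (20%). Bdh2 read 139.7 and 156.0 against 503.7 and 579.3 without cAMP (-1.77 ± 0.16). Both were called with any 1 array left out.

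Among 17 regulators 3 passed, all lower with cAMP, and their share of 17.6% was near the 15.4% of all genes. Esrrg, an orphan nuclear receptor that drives oxidative genes in heart and muscle, read 21.8 and 13.5 with cAMP, against 86.6 and 101.2 without (-1.72 ± 0.22, limma adjusted p = 0.00283), the second cAMP array being below background. Esrrg reached the filter on dim probe sets only through the control arrays, and it is part of the share above. Prkaa2, a catalytic subunit of the energy sensor AMP-activated kinase, read 91.6 and 117.8 against 255.7 and 407.4 without cAMP (-1.50 ± 0.24), while the other catalytic subunit, Prkaa1, did not pass (0.02 ± 0.15). Sirt3, a mitochondrial deacetylase that acts on oxidation enzymes, Acadl among them, fell by 0.96 ± 0.18, to 202.8 and 151.4 with cAMP against 343.4 and 370.0 without. Prkaa2 was lost without cAMP replicate 1 and Sirt3 when either cAMP array was left out. Ppara, the nuclear receptor that drives these genes in liver, read at most 2.6 on any array and was below background throughout, and Ppard (-0.08 ± 0.21) and Pparg (-0.05 ± 0.26) did not pass.

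Of 19 PPAR targets outside oxidation 10 were too dim to test, and of the 9 tested 1 rose and 3 fell. That is 44.4% against 15.4% of all genes, but Pdk4 and Vldlr reached the filter on dim probe sets only through their brighter group. The list was also chosen with earlier results of these data known, so the share is no result about the list. Fabp3, which ferries fatty acids in the cytosol of muscle and heart cells, read 282.4 and 202.4 with cAMP, against 2321.2 and 2799.4 without (-3.33 ± 0.18). Pdk4, the kinase that turns cells from glucose to fatty acids, was at background on both cAMP arrays and at 34.2 and 46.7 without, at least 2.81-fold lower. Cidea, a lipid droplet protein of brown fat, fell by 1.22 ± 0.18 on the log2 scale, and the lipoprotein receptor gene Vldlr, at background on both control arrays, was at least 8.08-fold higher. Pdk4 was lost when either cAMP array was left out, without control replicate 2 and without the filter, and Cidea without cAMP replicate 2.

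**Figure D4:**
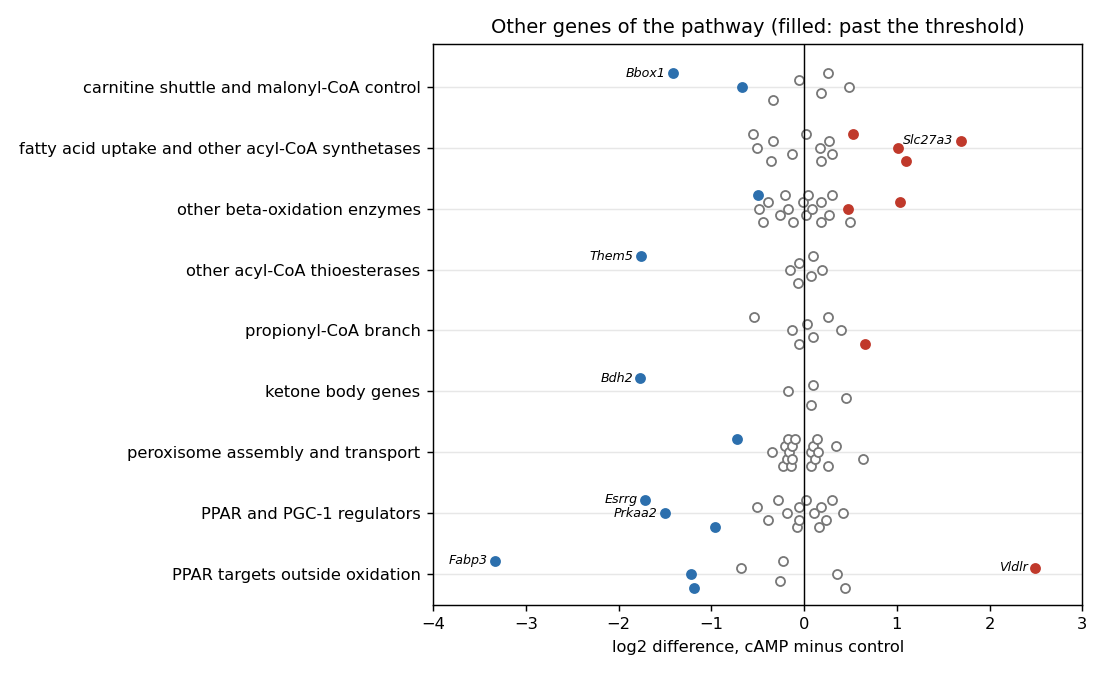
Log2 difference, cAMP minus control, of the tested genes on 9 further lists, 1 point per gene, filled where the gene rose (red) or fell (blue) and open where it did not pass. Most points are open, 85 of 105, and filled points lie on both sides of 0.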

How the data were processed

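Total RNA of 2 cAMP and 2 control cultures was labelled with biotin and hybridised to one-colour Affymetrix arrays, per the labels' protocols. The submitters' processing notes name GCOS and MAS5, without version or settings, as the tools behind the deposited intensities, 1 linear value per probe set. Leaving out the lowest and highest 2% of values, every array averaged 125.0, the mark of scaling by the authors. Depth has no counterpart on arrays; their number limits the precision.

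Symbols came from the platform annotation (20832 probe sets with 1 symbol, 436 with several, 9831 with none) and were updated through a RefSeq table for 20764. Log2(signal + 16) was computed from the deposited intensities without further normalization. Probe sets other than 57 controls with a mean at or above the 40th percentile (log2 5.10) were tested, 18625 in all, with limma 3.58.1 in R 4.3.3 (lmFit, eBayes with an intensity trend, two-sided, Benjamini-Hochberg), a script tested on simulated data. A log2 difference on this scale understates changes of dim genes. A fold given as at least N compares geometric means with values raised to the background of 14.2. All members were named; of each further list, up to 4 genes past the threshold with the smallest p, and others chosen after their values were seen (Mlycd, Slc25a20, Slc22a5, Prkaa1, the PPAR genes, and the markers). The members and lists were chosen with earlier results of these data known. Alternatives changed the pseudocount, filter, normalization, variance model, probe set, replicate block and arrays.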

Additional observations from a re-analysis of the deposited data

How the results depend on the processing

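All 6 members that passed kept their direction under the 11 alternatives to the fit tried for each, and Acsl4 its side of the threshold. Members called higher numbered 4 as reported, 2 without the filter on dim probe sets (Hadh and Cpt1a lost), 2 without the intensity trend (the same pair lost) and 1 to 9 when 1 array was left out. Members called lower numbered 2 as reported, 1 without the filter (Acsl6 lost) and 0 to 2 when 1 array was left out; the 0 are limma counts, with 5 members of either direction at an unadjusted p under 0.05 without cAMP replicate 1 and 8 without cAMP replicate 2. With the second probe set per gene 1 was called lower, because that of Acsl6 lay below the filter. All genes called numbered 1546 as reported, 1010 without the filter, where more probe sets share the adjustment, and 469 to 2598 when 1 array was left out; the lone array of a group was then assumed to vary like the other group. Apart from the second probe set of Acsl6, the cause of the changes in these counts was not tested. Of members that did not pass, 8 changed sign. When 1 array was left out their log2 differences ran from -0.19 to 0.37 for Acads, -0.21 to 0.061 for Acaa2, -0.016 to 0.55 for Hsd17b4, -0.049 to 0.27 for Eci2, -0.19 to 0.20 for Etfdh, -0.19 to 0.39 for Acsl5, -0.33 to 0.20 for Crat and -0.095 to 0.32 for Crot. Etfdh was also at -0.00031 with a pseudocount of 64, and Acsl5 at -0.0093 on its second probe set. Same-numbered arrays deviated from their group means with a correlation of 0.163 over tested probe sets, but nothing in the labels pairs them; with the replicate number as a block the same 6 members passed, 4 higher and 2 lower, and 1734 genes in all. Of the 20 calls on the further lists, 20 held with quantile normalization, 19 with a pseudocount of 64, 18 with a pseudocount of 1, 14 without the trend, 13 without the filter, 19 with the block (Scp2 lost) and 7 to 19 when 1 array was left out. With the filter at the 60th percentile 14 held, and the 6 others (Acsf2, Acsm5, Bbox1, Esrrg, Pdk4 and Vldlr) were too dim to be tested. Signals near background limit Acox2, Acox3, Ehhadh and Acot1.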
